A study of Mus musculus with 8 samples.

Results

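Translation initiation factors are the proteins that bring the ribosome, the initiator tRNA and an mRNA together at a start codon. The genes described here are those whose array symbol begins with Eif1 to Eif6, leaving out the eIF2 kinases, the Argonaute genes that carry old Eif2c symbols, and the Y-linked copy of the eIF2 gamma subunit. The array holds 87 such probes for 46 genes. Of these, 59 probes for 35 genes lay above an intensity of 20, the floor of the deposited values, on at least 4 of the 8 arrays and were tested. They stand among 12259 tested probes of 45281 on the array. No tested initiation factor probe passed through the arrays of a single group alone. The remaining 28 probes were dim, and 16 of them were at the floor on all 8 arrays.

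RNA came from mouse bone marrow cells sorted for CD71, the transferrin receptor, and Ter119, an erythroid surface marker, and was measured on Illumina bead arrays. The 4 KAP1 knockout (KO) samples were A4, A8, A11 and A13, and the 4 KAP1 wild-type (WT) samples were C4, C6, C8 and C9. All were described alike as coming from mice of mixed strain, 8 to 12 weeks old, with a floxed Kap allele and a YFP reporter behind a floxed stop (Kap-flox/stopfloxYFP). The Cre that acts on these alleles is not given in the sources used here, and the labels do not tie each sample to its own animal. The p-values therefore rest on the spread among these 8 samples, which may be partly technical. KAP1 is the corepressor encoded by Trim28, whose probe was 3.28-fold lower in KO samples (adjusted p = 0.0085, limma).

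As background, eIF2 bound to GTP carries the initiator tRNA to the small ribosomal subunit, helped by eIF1, eIF1A and the large scaffold eIF3. The cap-binding protein eIF4E, the scaffold eIF4G and the helicase eIF4A load the mRNA, and eIF4E-binding proteins hold eIF4E back. At the start codon eIF5 triggers GTP hydrolysis by eIF2, eIF5B joins the large subunit, and eIF2B recharges eIF2 with GTP. In red cell precursors the heme-regulated kinase HRI phosphorylates eIF2 when heme is short, which blocks eIF2B and keeps globin synthesis matched to heme.

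KO sample A8 stood apart. Its mean correlation with the other arrays of its group, over the tested probes, was 0.894, against 0.934 to 0.950 for the other 7 samples. A8 was at the floor on 8 of the 59 initiation factor probes, and on 5 of these it was the only array at the floor. Over all 12259 tested probes it was alone at the floor on 454 (3.70%), WT sample C8 on 260 (2.12%), and each of the others on 38 to 223. For several of the probes on which A8 lay apart, results are given with and without it. The sort was checked on markers: 9 of the 10 erythroid markers on the array were tested, and Epb42 was at or near the floor. Of the 9, 3 had a log2 fold change above 0 and 6 below, with a median of -0.26.

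Eif5 was the initiation factor gene that fell in KO samples, by 2.55-fold to 3.73-fold, while most others had small differences above 0 that did not pass. Of the 59 probes, 2 were higher in KO samples at an adjusted p under 0.05 (limma, Benjamini-Hochberg over all tested probes), which is 3.39% against a background of 2.46% of all tested probes called higher. The 2 were probes of Eif3d and Eif2b5. Another 3 were lower, which is 5.08% against a background of 3.11% called lower, and all 3 were the probes of Eif5. The other 54 did not pass. Without adjustment, 19 probes (32.2%) had a p under 0.05 in the higher direction, against 14.6% of all tested probes, and 3 (5.08%) in the lower, against 10.4%.

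Taking for each gene its brightest tested probe, 29 of 35 genes had a log2 fold change above 0, with a median of 0.40. The median over all tested probes was 0.09. By probe, 45 of 59 (76.3%) were above 0, against 56.0% of all tested probes. Every KO sample lay above every WT sample on 10 probes (16.9%, against a background of 10.5%), and below on 3 (5.08%, against a background of 7.31%). The mean log2 intensity of the 34 genes other than Eif5 was 8.62, 8.78, 8.73 and 8.75 in KO samples (A4, A8, A11, A13), against 8.25, 8.52, 8.37 and 8.34 in WT samples (C4, C6, C8, C9). The groups did not overlap on this mean, but Eif5 was left out of it as the gene that fell in these same data. With all 35 genes the mean was 8.71, 8.87, 8.82 and 8.84 in KO samples, against 8.39, 8.65, 8.51 and 8.48 in WT samples. The groups then lay closer, still without overlap. No such mean over all tested probes is given here for comparison.

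**Figure D1:**
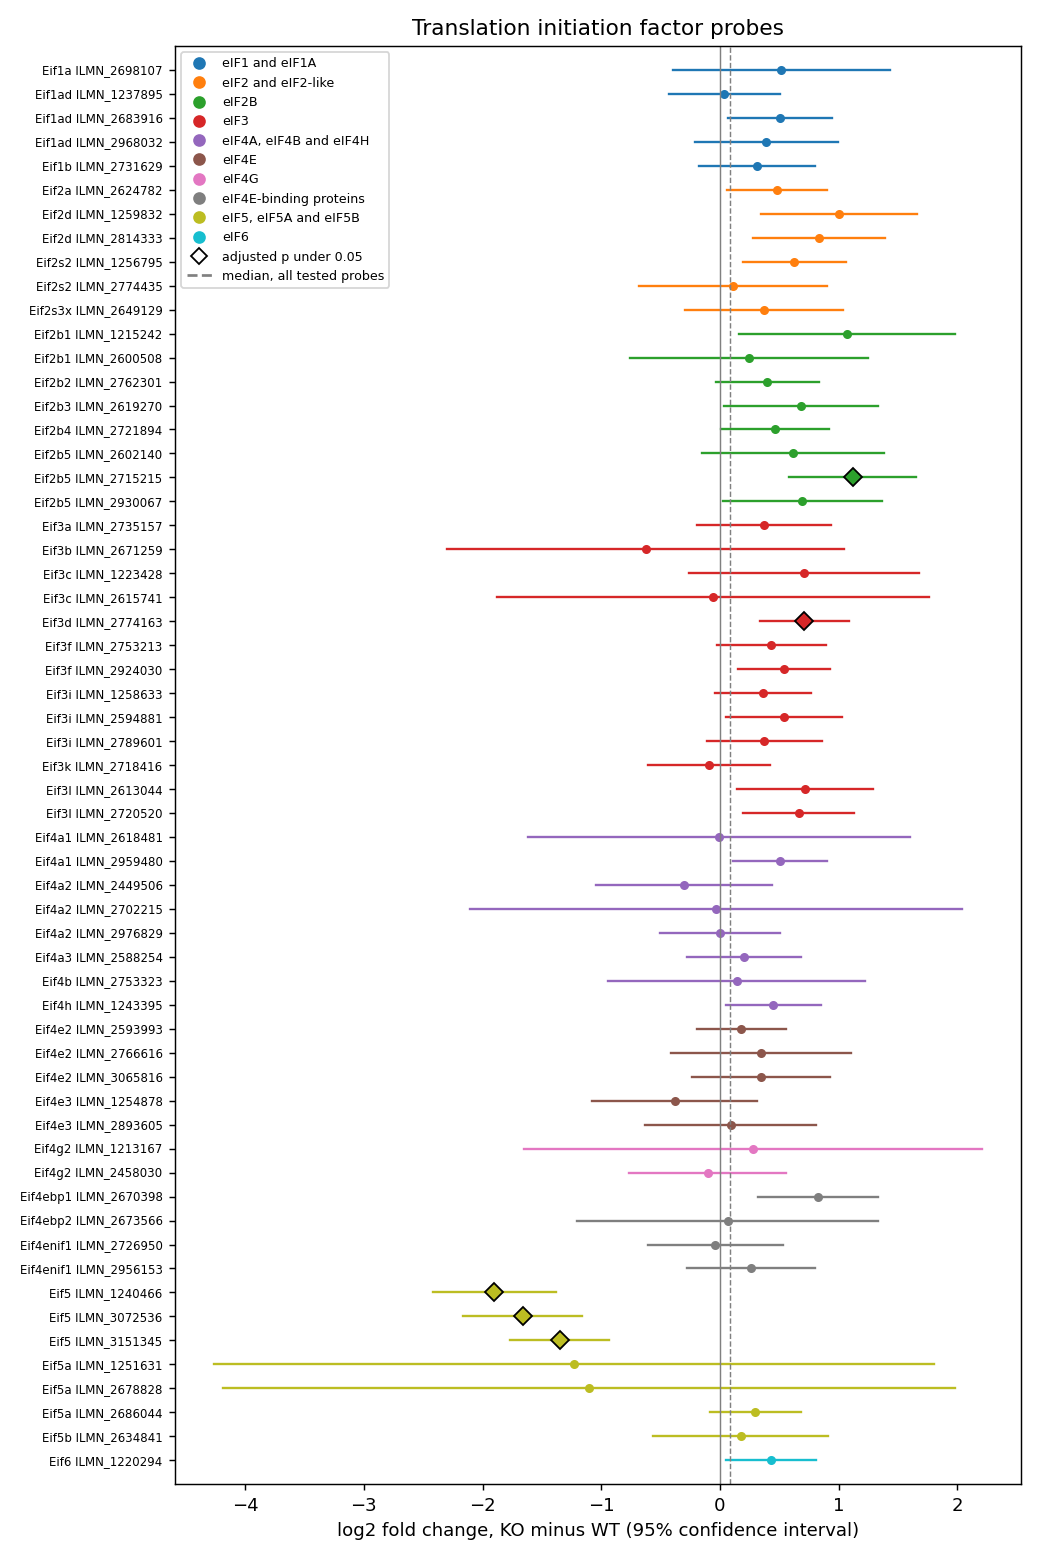
Log2 fold change, KO minus WT, of the 59 tested initiation factor probes with its 95% confidence interval from limma, coloured by factor complex. Diamonds mark an adjusted p under 0.05, the dashed line is the median of all tested probes (0.09), and the 3 Eif5 probes are the diamonds to the left of 0.

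**Figure D2:**
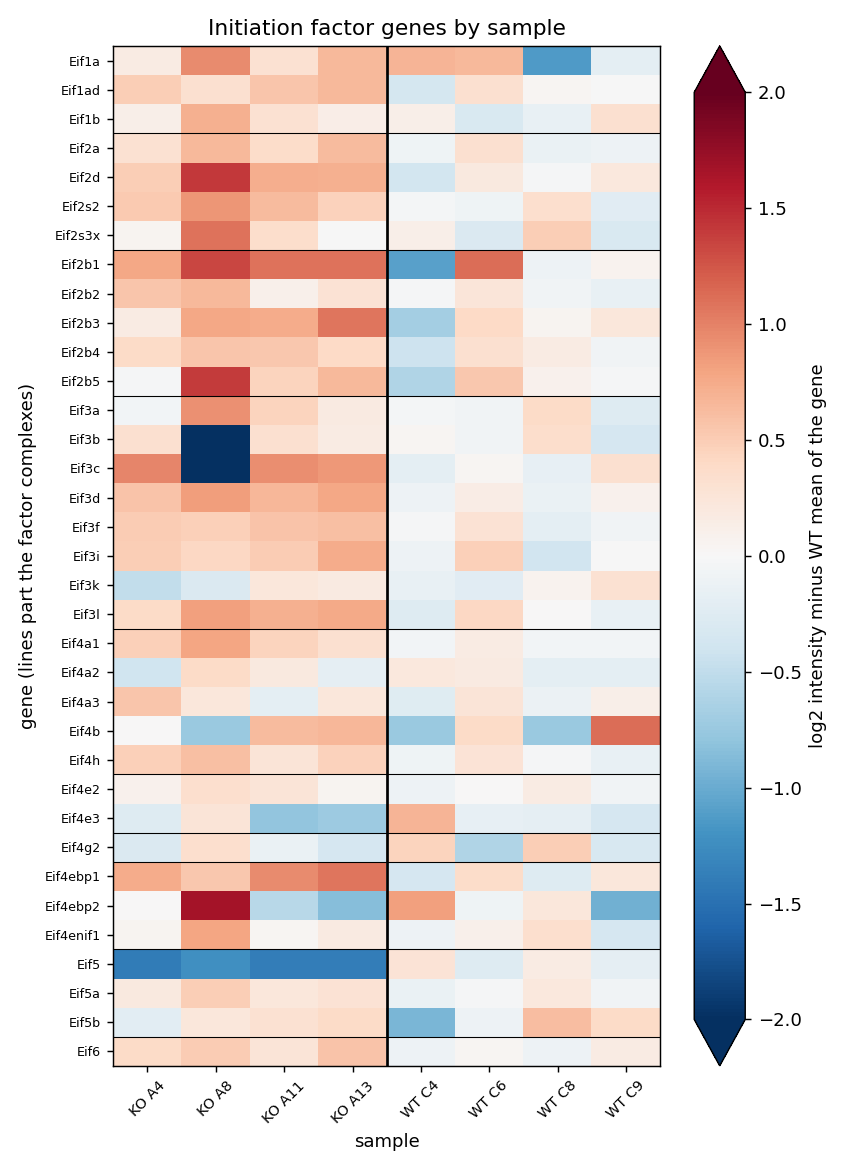
Log2 intensity minus the WT mean for the brightest tested probe of each of the 35 genes in the 4 KO and 4 WT samples, with genes grouped by complex. The scale stops at 2 in both directions; the Eif5 row is blue in every KO sample, and Eif3b and Eif3c are dark blue in A8, where they were at the floor.

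Because the results turn on Eif5, Eif3d and Eif2b5, the 250 bases upstream of the RefSeq start of each are shown (RefSeq, mouse assembly GRCm38.p6, gene strand, 5′ to 3′). Capitals mark matches, on either strand, to the motifs searched. Eif5 is at chr12:111537851-111538100 (plus strand), Eif3d at chr15:77970825-77971074 (minus strand) and Eif2b5 at chr16:20498567-20498816 (plus strand).
Eif5: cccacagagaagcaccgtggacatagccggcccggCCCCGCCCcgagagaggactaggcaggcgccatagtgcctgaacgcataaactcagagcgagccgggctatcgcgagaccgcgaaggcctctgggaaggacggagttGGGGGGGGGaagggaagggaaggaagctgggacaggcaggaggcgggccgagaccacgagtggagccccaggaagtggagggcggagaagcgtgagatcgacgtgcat
Eif3d: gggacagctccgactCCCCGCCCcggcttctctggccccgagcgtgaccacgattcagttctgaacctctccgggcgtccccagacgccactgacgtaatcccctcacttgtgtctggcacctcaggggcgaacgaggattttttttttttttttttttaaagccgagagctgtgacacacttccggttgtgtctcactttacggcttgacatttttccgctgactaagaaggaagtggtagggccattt
Eif2b5: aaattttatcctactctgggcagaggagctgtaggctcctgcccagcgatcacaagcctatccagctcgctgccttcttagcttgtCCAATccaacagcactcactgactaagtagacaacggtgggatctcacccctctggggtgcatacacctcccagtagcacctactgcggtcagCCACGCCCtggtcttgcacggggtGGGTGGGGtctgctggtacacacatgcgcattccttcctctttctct

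The GC content was 66.4% upstream of Eif5, 54.0% upstream of Eif3d and 56.0% upstream of Eif2b5. The median was 59.0% over the 28 of 35 initiation factor genes with an entry and 52.0% over all 27025 promoters of this length. The CACCC-type motif CCNCNCCC, which KLF-family factors bind, matched 3 times upstream of Eif5, with 2 of the matches overlapping in a run of G, once upstream of Eif3d and 2 times upstream of Eif2b5. It was in 15 of the 28 initiation factor promoters (53.6%) and in 45.6% of all. The CCAAT box matched once upstream of Eif2b5 and was in 8 of the 28 (28.6%), against 34.5% of all. The E-box CACGTG was in none of the 3 sequences shown, in 5 of the 28 (17.9%) and in 6.05% of all. The GATA forms AGATAA and TGATAA were in none of the 3, in 1 (3.57%) and 0 of the 28, and in 10.3% and 8.16% of all.

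Eif5, the factor that makes eIF2 hydrolyse its GTP once a start codon is found, fell on all of its tested probes. Probe ILMN_1240466 had an intensity of 861 in A4, 601 in A8, 791 in A11 and 776 in A13 among KO samples, against 3852 in C4, 2114 in C6, 3011 in C8 and 2520 in C9 among WT samples. Values below follow this order of samples. Its log2 intensity was 9.55 ± 0.22 in KO samples and 11.45 ± 0.37 in WT samples (SD, n = 4 each), a log2 fold change of -1.90 (SE 0.23), which is 3.73-fold lower in KO samples (adjusted p = 0.00317, limma). Probe ILMN_3072536 gave 2427, 1750 (A8), 2109 and 1686 in KO samples, against 8466, 4959, 6318 and 5698 in WT samples, and was 3.16-fold lower (log2 fold change -1.66, SE 0.22, adjusted p = 0.00454, limma). Probe ILMN_3151345 gave 3540, 3951, 3565 and 3548 in KO samples, against 11170, 7782, 10430 and 8210 in WT samples, and was 2.55-fold lower (log2 fold change -1.35, SE 0.18, adjusted p = 0.0047, limma). On each probe the 4 KO samples lay well below the lowest WT sample, C6, and C4 was the highest.

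**Figure D3:**
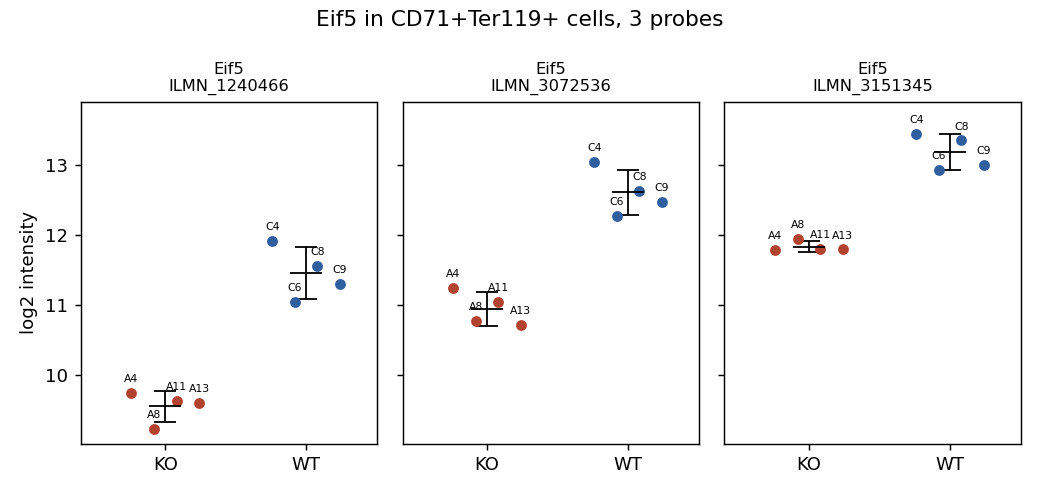
Log2 intensity of the 3 Eif5 probes in the 4 KO and 4 WT samples (points, with sample codes), with group means and SDs in black. On each probe all KO samples lie below all WT samples, and the KO samples of ILMN_3151345 have an SD of 0.08.

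All 3 Eif5 probes kept an adjusted p under 0.05 in each of the 8 fits that left out 1 sample, with log2 fold changes of -2.04 to -1.75, -1.77 to -1.51 and -1.43 to -1.26 and an adjusted p between 0.0034 and 0.0232. In the authors' deposited table, whose signed fold divides the groups' geometric means, the 3 probes stood at -3.73, -3.16 and -2.55, with p-values of 0.000336, 0.000273 and 0.000974. In sorted bulk RNA, fewer cells of a type and less RNA per cell cannot be told apart.

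Markers of other cells moved beside Eif5. All 7 tested B cell markers of the 9 on the array had a log2 fold change below 0, 1 of them, H2-Aa, passed the test as lower, and their median was -1.10. Their summed intensity was 1857 to 4156 in KO samples and 5043 to 8432 in WT samples, with Pax5 and Ms4a1 at or near the floor. The summed intensity of the 9 erythroid markers was 63987 to 72350 in KO samples and 81200 to 105373 in WT samples, and 1 of them, Alas2, passed as lower. Of the 5 tested megakaryocyte markers, 1 (Tubb1) was higher and 4 had a log2 fold change above 0, with a median of 0.73 and sums of 599 to 848 in KO samples and 325 to 487 in WT samples, and Ppbp and Gp1bb were at or near the floor. The 9 neutrophil and 7 macrophage markers gave no call, and of 6 T and NK cell markers 1, Cd2, was lower. The neutrophil markers were nonetheless bright, with a summed intensity of 40610 to 65557 in KO samples and 44196 to 74239 in WT samples. Their mean log2 intensity was 11.29 in KO and 11.31 in WT samples, beside 11.58 and 11.82 for the erythroid markers. Of the 5 tested mast cell and basophil markers, 2 were higher and 1 lower, 4 had a log2 fold change above 0, and the median was 1.24. Their mean log2 intensity was 6.07 to 6.66 in KO samples and 5.24 to 5.79 in WT samples, without overlap, and their summed intensity was 409 to 589 in KO samples and 343 to 577 in WT samples. The part of these cells in the Eif5 result, or in any other below, was not tested.

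Neither Eif5a nor Eif5b passed the test. Eif5a encodes the hypusine-carrying factor that, despite its name, acts mainly in elongation. Its probe ILMN_2686044 gave 1004, 1238, 1027 and 1080 in KO samples, against 806, 869, 1020 and 843 in WT samples (log2 fold change 0.30, SE 0.17, adjusted p = 0.306, limma). Its other probes were at the floor in A8 alone. ILMN_1251631 gave 1777, 20, 1811 and 2234 in KO samples and 1474, 1572, 1064 and 1777 in WT samples, a log2 fold change of -1.23 (SE 1.35) with A8 and 0.42 without. ILMN_2678828 stood at -1.10 (SE 1.37) with A8 and 0.57 without. Eif5b, the GTPase that joins the ribosomal subunits, had a log2 fold change of 0.17. Eif6, which keeps the large subunit from joining too early, gave 486, 532, 447 and 552 in KO samples, against 347, 385, 347 and 419 in WT samples. The groups did not overlap, but the 1.35-fold difference did not pass (adjusted p = 0.157, limma).

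In eIF2B, the exchange factor that recharges eIF2, all 5 subunit genes and all 8 of their probes had log2 fold changes above 0, with a gene median of 0.62, and 1 probe passed. That probe, ILMN_2715215 of Eif2b5, the catalytic epsilon subunit, gave dim intensities of 65.6, 85.5, 84.2 and 95.1 in KO samples, against 28.0, 38.0, 54.0 and 35.2 in WT samples. It was 2.17-fold higher (log2 fold change 1.12, SE 0.24, 95% interval 0.58 to 1.65, adjusted p = 0.0311, limma), and the groups did not overlap. The other Eif2b5 probes stood 1.53-fold and 1.62-fold above WT without passing (adjusted p = 0.29 and 0.188, limma). On both, A8 was the highest KO sample, and without A8 they stood 1.28-fold and 1.33-fold above WT. The call was kept in 3 of the 8 fits that left out 1 sample, those without A4, C6 or C8, and the adjusted p ranged from 0.0205 to 0.0982.

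Among the other eIF2B subunits, Eif2b4 (delta) gave 381, 432, 423 and 383 in KO samples, against 219, 365, 328 and 278 in WT samples, without overlap (1.38-fold, adjusted p = 0.191, limma). Eif2b1 (alpha) gave 105, 155, 130 and 131 in KO samples, against 29.0, 133, 57.3 and 64.2 in WT samples, on ILMN_1215242. C6 lay among the KO samples there, and the log2 fold change of 1.07 (adjusted p = 0.144) became 1.45 without C6 (adjusted p = 0.0281, limma). Among the 8 fits that left out 1 sample this was the only call, and the adjusted p reached 0.263. The second Eif2b1 probe stood at 0.24. Eif2b3 (gamma) gave 112, 172, 168 and 211 in KO samples and 62.8, 133, 104 and 117 in WT samples (log2 fold change 0.68), and Eif2b2 (beta) had a log2 fold change of 0.40. Neither passed.

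All 4 genes of eIF2 and its relatives were above 0, with a median of 0.56, and none of their 6 probes passed. Eif2d encodes an eIF2-like protein that delivers tRNA outside the usual route. Its probe ILMN_2814333 gave 127, 240, 148 and 147 in KO samples, against 69.5, 103, 88.6 and 104 in WT samples, without overlap (1.78-fold, adjusted p = 0.0823, limma). Its dimmer probe was 2.01-fold higher (adjusted p = 0.0793, limma), with 2 WT samples at the floor. Eif2s2, the beta subunit of eIF2, gave 274, 353, 298 and 264 in KO samples, against 187, 181, 241 and 164 in WT samples, also without overlap (1.55-fold, adjusted p = 0.0907, limma), while its second probe had a log2 fold change of 0.11. Eif2a, a separate initiator tRNA carrier, gave 649, 824, 677 and 819 in KO samples and 497, 655, 481 and 494 in WT samples (1.40-fold, adjusted p = 0.152, limma). Eif2s3x, the gamma subunit, stood at 0.37, or 0.13 without A8.

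In eIF1 and eIF1A, which hold the small subunit open for scanning, the 3 genes were above 0 and none passed. Eif1ad, an eIF1A-domain gene, gave 482, 428, 501 and 533 in KO samples on ILMN_2683916, against 268, 427, 350 and 340 in WT samples (1.42-fold, adjusted p = 0.152, limma). The lowest KO sample, A8, lay just above the highest WT sample, C6, and the other probes stood at 0.04 and 0.39. Eif1a gave 49.2, 85.2, 54.5 and 69.2 in KO samples and 70.8, 69.2, 20 and 38.4 in WT samples, with overlap. Eif1b gave 453, 683, 517 and 460 in KO samples and 455, 341, 380 and 525 in WT samples, also with overlap (log2 fold change 0.31).

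**Figure D4:**
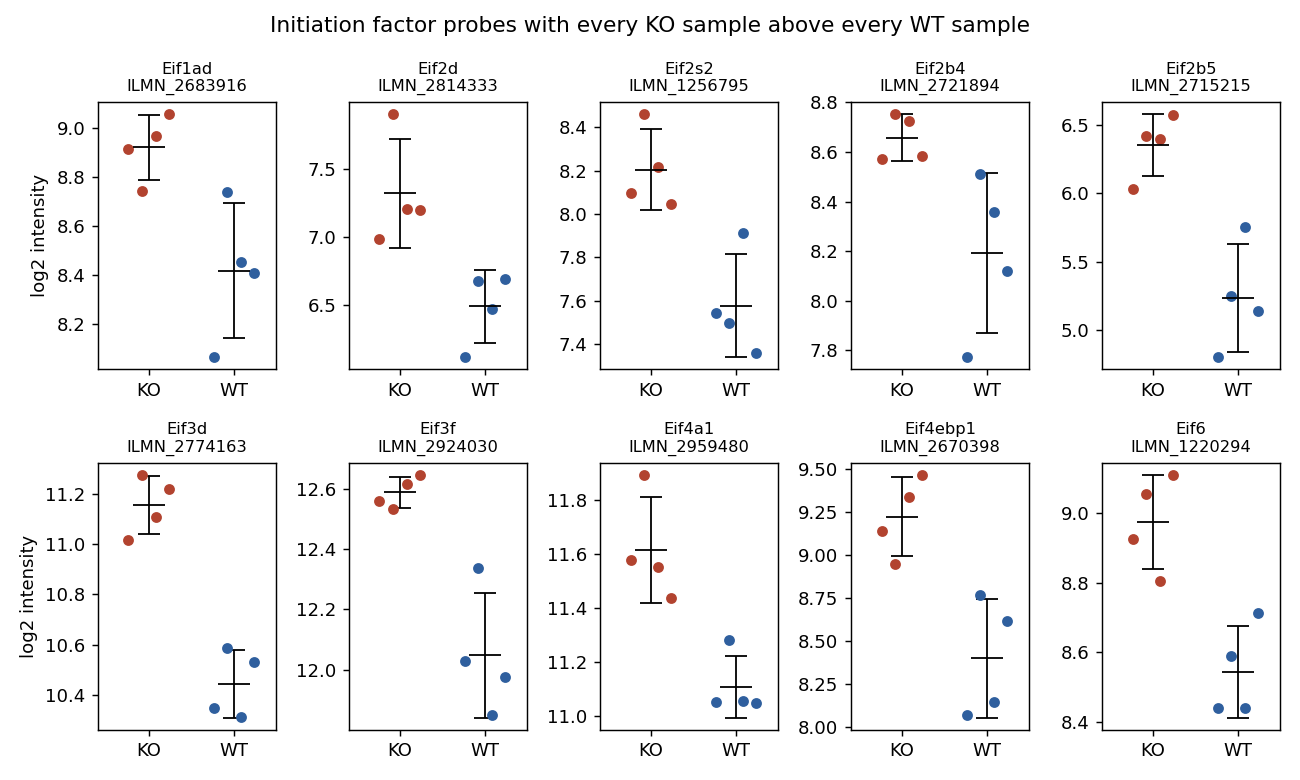
Log2 intensity of the 10 initiation factor probes on which every KO sample lay above every WT sample, with group means and SDs in black and a separate axis range for each probe. Eif3d and Eif2b5 passed the test across all probes, and the other 8 did not.

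The scaffold eIF3 was measured through 13 probes of 8 genes, of which 10 probes and 5 genes were above 0. Eif3d, the subunit that in human cells can itself bind the cap of some mRNAs, gave 2071, 2480 (A8), 2206 and 2385 in KO samples, against 1303, 1538, 1273 and 1481 in WT samples. Its log2 intensity was 11.15 ± 0.12 in KO samples and 10.45 ± 0.13 in WT samples (SD, n = 4 each), so it was 1.64-fold higher (log2 fold change 0.71, SE 0.17, adjusted p = 0.0425, limma). The groups did not overlap. The call was kept in 1 of the 8 fits that left out 1 sample, the fit without C6, and the adjusted p ranged from 0.0374 to 0.121.

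Eif3l, a peripheral eIF3 subunit, was 1.59-fold and 1.65-fold higher on its probes without passing (adjusted p = 0.0938 and 0.126, limma). On ILMN_2720520 it gave 1312, 1770 (A8), 1651 and 1695 in KO samples, against 838, 1341, 1010 and 907 in WT samples, where C6 reached the KO range. Without C6 both probes passed (adjusted p = 0.0408 and 0.0469, limma). That was 1 of the 8 fits that left out 1 sample, and in the others the adjusted p reached 0.207 and 0.259. Eif3f gave 6033, 5922, 6269 and 6409 in KO samples, against 4182, 5171, 3692 and 4025 in WT samples, without overlap (1.45-fold, adjusted p = 0.101, limma). On its second probe the groups overlapped, A8 at 3126 lying below C6 at 3403 (log2 fold change 0.43, adjusted p = 0.221, limma). Eif3i stood at 0.36, 0.54 and 0.37 on its 3 probes, and its brightest probe, ILMN_2594881, gave 4262, 4018, 4280 and 5083 in KO samples and 2825, 4216, 2331 and 3011 in WT samples. Eif3a, the largest subunit, stood at 0.37, or 0.19 without A8. Eif3k gave 652, 754, 1076 and 1036 in KO samples and 830 (C4), 783, 962 and 1136 in WT samples, with a log2 fold change of -0.09 (95% interval -0.61 to 0.42).

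A8 decided the sign of the 2 other eIF3 genes below 0. Eif3c, a core subunit, gave 311, 20, 303 and 288 in KO samples, against 138, 163, 142 and 199 in WT samples, on ILMN_2615741. With A8 at the floor its log2 fold change was -0.06 (SE 0.81, adjusted p = 0.971), and without A8 it was 0.92, or 1.89-fold higher, and passed (adjusted p = 0.0344, limma). Its other probe stood at 0.71 with all samples. Eif3b, the subunit that carries eIF3i, gave 242, 20, 242 and 218 in KO samples and 201, 186, 250 and 155 in WT samples, a log2 fold change of -0.63 with A8 and 0.26 without.

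**Figure D5:**
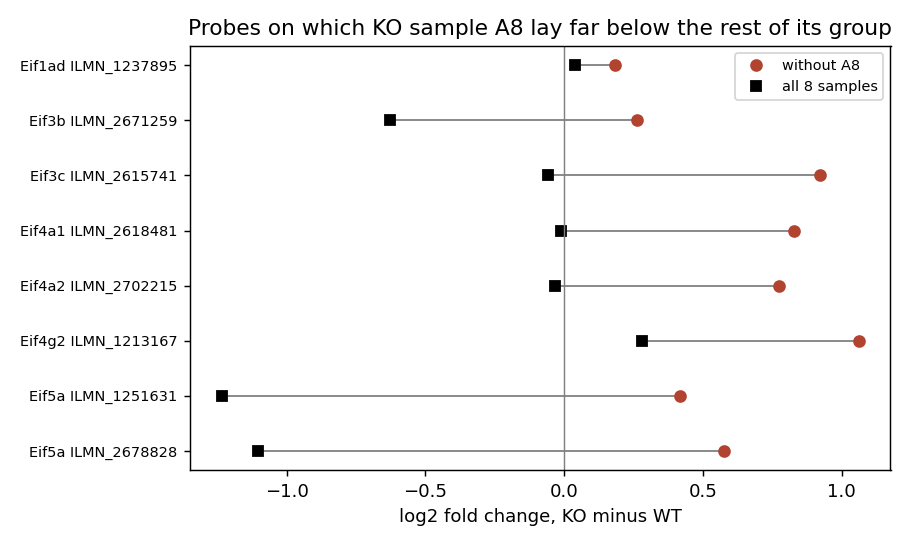
Log2 fold change, KO minus WT, of the 8 initiation factor probes on which A8 lay far below the rest of the KO group, with all 8 samples (black squares) and without A8 (red circles). The probes were picked because A8 was low on them, so each had to move to the right without A8. The Eif5a probes moved from -1.23 to 0.42 and from -1.10 to 0.57. Probes not shown, on which A8 was the highest KO sample, moved to the left, such as Eif2b5 on ILMN_2602140 from 0.62 to 0.36.

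Among the helicase eIF4A and its helpers, all 5 genes had a log2 fold change of at least 0.00 on their brightest probe, with a median of 0.20, and none passed. Eif4a1, the helicase of the cap-binding complex, gave 3058, 3800 (A8), 3003 and 2769 in KO samples, against 2123, 2487, 2130 and 2118 in WT samples, without overlap (1.42-fold, adjusted p = 0.122, limma). Its second probe gave 49.0 in A8 and 474 to 516 in the other KO samples, and stood at -0.01 with A8 and 0.83 without. Eif4h, which stimulates eIF4A, gave 3753, 4082, 3207 and 3678 in KO samples, against 2516, 3241, 2639 and 2410 in WT samples, and C6 alone reached the lowest KO sample (1.37-fold, adjusted p = 0.159, limma). Eif4a2, a close copy of Eif4a1, stood at 0.00 (95% interval -0.51 to 0.51), -0.03 and -0.30 on its 3 probes. Cross-hybridisation between such close copies was not tested. The Eif4a2 probe at -0.03, ILMN_2702215, was at the floor in A8 and near it in C8. It stood at 0.77 without A8 and at -0.81 without C8. Eif4a3, of the exon junction complex, stood at 0.20, and Eif4b, near the floor, at 0.14.

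The cap side of initiation held Eif4ebp1, the member with the smallest adjusted p among those that did not pass. This mTOR target, which binds and holds back eIF4E, gave 564, 493, 649 and 709 in KO samples, against 268, 436, 282 and 393 in WT samples. Its log2 intensity was 9.22 ± 0.23 in KO samples and 8.40 ± 0.35 in WT samples (SD, n = 4 each), 1.77-fold apart and without overlap, and the adjusted p was 0.0655 (limma). It passed in 1 of the 8 fits that left out 1 sample, the fit without C6, and the adjusted p ranged from 0.0401 to 0.168 (limma). Eif4ebp2 gave 103, 323, 69.7 and 56.8 in KO samples and 181, 96.2, 119 and 52.9 in WT samples. Its interval was wide (log2 fold change 0.07, SE 0.56), and without A8 it stood at -0.46. Eif4enif1, which carries eIF4E into the nucleus, gave 533, 890 (A8), 527 and 581 in KO samples and 477, 551, 651 and 407 in WT samples on its brighter probe, and stood at 0.26 and -0.04.

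Eif4e itself was dim, and neither of its relatives passed. Eif4e2, a cap-binding protein that does not bind eIF4G, gave 444, 524, 497 and 432 in KO samples and 389, 418, 466 and 399 in WT samples (log2 fold change 0.18, adjusted p = 0.523, limma), and stood at 0.35 on both other probes. Eif4e3 gave 59.3, 84.8, 41.2 and 43.0 in KO samples and 114, 63.3, 63.1 and 56.6 in WT samples (log2 fold change -0.38, adjusted p = 0.466, limma), and stood at 0.09 on its other probe. Eif4g2, an eIF4G relative without the eIF4E-binding region, gave 284, 440, 317 and 276 in KO samples and 470, 228, 486 and 279 in WT samples (log2 fold change -0.10, SE 0.29). Its other probe was at the floor in A8 and in C8 and stood at 0.28, or 1.06 without A8.

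Of the 17 genes with several tested probes, 10 had probes of a single sign and 7 had probes of both signs. Without A8, 3 genes had probes of both signs, 48 of the 59 probes were above 0, and 16 probes (27.1%, against 14.9% of all tested probes in that fit) had every KO sample above every WT sample. The gene median was then 0.37. The 46 initiation factor probes above the floor on all 8 arrays, where A8 and C8 cannot be at the floor, included the 5 called probes, and 38 of the 46 were above 0, against 57.7% of 7630 such probes on the array. The number of probes called higher moved with single samples. It was 6 without C6, where 4.54% of all tested probes were called higher, and 2 without A4 (1.48% of all). It was 1 without A8 (2.36% of all) or C8 (1.22% of all). It was 0 without A11, A13, C4 or C9 (limma), where 0.742% to 0.971% of all tested probes were called higher. In those 4 fits 9 to 17 initiation factor probes (15.3% to 28.8%) had an unadjusted p under 0.05 in that direction, against 11% to 12.2% of all tested probes.

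The 11 initiation factor genes with no tested probe were Eif1ax, Eif2s3x-ps1, Eif3e, Eif3h, Eif3j1, Eif3m, Eif4e, Eif4e1b, Eif4ebp3, Eif4g3 and Eif5a2. Over all 28 dim probes the highest intensity on any array was 37.7, for Eif2s3x-ps1. Eif1, Eif2s1, Eif3g and Eif4g1 were not analysed here.

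Of a list of 40 other genes of translation and its control, 32 were tested. By the brightest tested probe of each gene, 1 was higher in KO samples, 2 were lower and 29 did not pass. Over all tested probes, 2.46% were called higher and 3.11% lower. Of the 32 genes, 24 were above 0, against 56.0% of all tested probes. Their median log2 fold change was 0.28, against 0.09 over all tested probes. Pabpc1, the poly(A)-binding protein that contacts eIF4G, gave 2272, 2928, 3548 and 3655 in KO samples, against 11937, 7364, 11436 and 11937 in WT samples, and was 3.43-fold lower (adjusted p = 0.00454, limma). Tsc1, which restrains mTOR, gave 36.0, 41.7, 38.7 and 26.6 in KO samples, against 176, 129, 159 and 156 in WT samples, and was 4.37-fold lower (adjusted p = 0.00122, limma). On these probes neither gene's groups overlapped.

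Eef1a1, the elongation factor that brings tRNA to the ribosome, was the gene called higher, at 1.65-fold (adjusted p = 0.0412, limma), and its second probe was 1.49-fold higher (adjusted p = 0.0819). It gave 23305, 27361, 22076 and 22076 in KO samples, against 15184, 15352, 13634 and 13262 in WT samples. Atf4, whose translation is controlled through eIF2, gave 2868, 2891, 3790 and 3227 in KO samples, against 2057, 1878, 2147 and 1952 in WT samples, and did not pass (1.58-fold, adjusted p = 0.0578, limma). Eif2ak1, which encodes HRI, was 1.34-fold lower without passing (adjusted p = 0.276, limma). Eif2ak3, Eif2ak4, Dhx29, Rps6kb2 and Paip1 were at or near the floor.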

How the data were processed

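Intensities for 4 KO and 4 WT samples, grouped by the labels, were taken from the authors' deposited value table, for which the submitters' processing notes name BeadStudio 3.1.3. The deposited intensities have a floor of 20 and are equal across arrays at 4959 of the 5000 highest ranks (tolerance 0.1 percent). The authors' deposited comparison table gives a signed fold score and a p-value per probe. The 8 columns of signal before normalization carry names that match no sample and were not used, so the authors' normalized intensities were used in place of a new background correction.

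Probes above the floor on at least 4 arrays (12259) were converted to log2 and compared by lmFit and eBayes (limma 3.58.1, R 4.3.3), adjusted by Benjamini-Hochberg with a threshold of 0.05. Probes were named by the array annotation, and all 87 initiation factor probes matched RefSeq by Entrez identifier. A gene was represented by its brightest tested probe. The number of arrays limits the precision.

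The members and gene lists were chosen with earlier results of these data known. Values per sample are given for members past the threshold, the 2 smallest p and the brightest of each complex, and members whose groups do not overlap. The alternatives changed the transformation, filter, scaling, variance model, weights, test, representing probe and samples.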

Additional observations from a re-analysis of the deposited data

Results flagged for a closer look

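Groups of 4 samples were screened for a highest or lowest sample whose gap to its nearest neighbour, as a share of the group's range, exceeded Dixon's 95% critical value. Of 118 groups over 59 probes, 19 did so, where chance alone gives about 1 in 20.

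A8 was involved in 10 of the 19. It lay far below the other KO samples on 8 probes, with gap shares of 0.907 for Eif1ad (ILMN_1237895), 0.957 for Eif3b, 0.972 for Eif3c (ILMN_2615741), 0.964 for Eif4a1 (ILMN_2618481), 0.924 for Eif4a2 (ILMN_2702215), 0.963 for Eif4g2 (ILMN_1213167), and 0.951 and 0.947 for Eif5a (ILMN_1251631 and ILMN_2678828). It lay far above them for Eif1ad on ILMN_2968032 (0.914) and for Eif5 on ILMN_3151345 (0.936), where its intensity of 3951 was still below every WT sample. A4 was low for Eif2d on ILMN_1259832 (0.925, intensity 28.5), and A13 for Eif4enif1 on ILMN_2726950 (0.866, intensity 105).

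In the WT group, C8 was low for Eif4a2 on ILMN_2702215 (0.891, intensity 21.7) and for Eif4g2 on ILMN_1213167 (0.844, at the floor). C6 was high for Eif2a (0.891, intensity 655), for Eif4a1 on ILMN_2959480 (0.966, intensity 2487) and for Eif4e2 on ILMN_3065816, where it reached 28.9, the other WT samples were at the floor and the gap share was 1. C9 was high for Eif1ad on ILMN_1237895 (0.920, intensity 204), and C4 for Eif4e3 on ILMN_1254878 (0.840, intensity 114).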

How the results depend on the processing

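The number of initiation factor probes called higher in KO samples, 2 in the fit as reported, depended on the processing. It was 0 in limma with no filter on dim probes (20 of 87, or 23.0%, at an unadjusted p under 0.05, against 4.17% of all 45281 probes), 5 with an intensity trend and robust variances, 8 with array weights, 1 with the authors' deposited p-values, and 1 without A8 and C8 together, an alternative chosen after seeing the data. Leaving out 1 sample gave 0 to 6. Eif3d was among the calls with trend and robust variances and with the authors' p-values. Eif2b5 on ILMN_2715215 was not, with an adjusted p of 0.0521 in that limma fit and 0.103 from the authors' p-values. With array weights both were called, and without A8 and C8 the 1 call was Eif2b5. The cause of these differences was not tested. With no filter, both the adjustment and the variance model took in all 45281 probes. Most of these were dim, as 12259 of them passed the filter, against 59 of the 87 initiation factor probes. The unfiltered shares of 23.0% and 4.17% therefore differ partly in how many probes were dim. Among tested probes the shares were 32.2% of initiation factor probes and 14.6% of all. Over the whole table, where 301 probes were higher and 381 lower, the counts were 74 and 78 with no filter, 425 and 424 with trend and robust variances, 836 and 702 with array weights, 94 and 114 with the authors' p-values, and 91 to 557 and 162 to 586 with 1 sample left out.

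The 3 Eif5 probes were called lower under every alternative except 2, each of which kept 2 of them: ILMN_3072536 had an adjusted p of 0.0506 with no filter, and ILMN_3151345 of 0.0536 with the authors' p-values. The gene median stayed between 0.35 and 0.44. The direction of Eif3c on ILMN_2615741 reversed without A8, and leaving out 1 sample gave -0.40 to 0.92. Another 64 of 931 values of single probes under an alternative changed sign with no call on either side, on 19 probes in all, Eif5, Eif3d, Eif2b5 and Eif4ebp1 not among them. Of these 931, 895 kept their side of the threshold, 19 lost a call and 16 gained one, with Eif4ebp1 gaining it with log2(intensity + 20) (adjusted p = 0.049), with trend and robust variances (0.0383) and with array weights (0.0198). The floor limits what can be read from dim probes.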

Other observations

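Some other translation genes outside the initiation factors shared the pattern of samples at the floor. All 3 probes of Eef2, the elongation factor that moves the ribosome along the mRNA, were at the floor in A8 and C8. The other Pabpc1 probes were 4.10-fold and 3.43-fold lower in KO samples without passing (adjusted p = 0.147 and 0.377, limma). A8 was at the floor on both and C8 on the second, and the groups overlapped on both. The probes of Rptor, the mTORC1 subunit that recruits the eIF4E-binding proteins, disagreed. ILMN_1220256 was at the floor of 20 in A4 and A8 and gave 28.9 and 36.4 in the other KO samples, against 54.5, 38.7, 60.2 and 65.2 in WT samples. Its fitted 2.11-fold lower value in KO samples (adjusted p = 0.0489, limma) rests on those floor values, and the brighter probe was 1.28-fold higher (adjusted p = 0.294). Further genes of the list that did not pass were Eef1g (1.66-fold higher, adjusted p = 0.0907), the release factor gene Gspt1 (1.60-fold higher, adjusted p = 0.0788) and Paip2, an inhibitor of the poly(A)-binding protein (1.81-fold lower, adjusted p = 0.0965, limma).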
